A study of Mus musculus with 6 samples.

Results

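The genes described here are 6 X-linked genes of the mouse: Gprasp1, Bex4, Bex1, Tceal9, Morf4l2 and Slc25a53. They were taken as every probe set that the platform's table assigns to 1 gene only, that gene being one of the 6. This gave 9 of the 12422 probe sets that are not controls, and 8 of the 9 were bright enough to enter the comparison. Bex1 and Bex4 were chosen because of their values in this same comparison. Their differences are therefore a description, and no p-value is given for any of the 6 genes.

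RNA was measured on 6 Affymetrix mouse arrays of double-negative thymocytes, which are immature T cells without CD4 and CD8. Of these, 3 came from RAG1/Ezh2 double mutant mice and 3 from RAG1-deficient mice, so per the labels both groups are deficient in RAG1, an enzyme needed to join the segments of antigen receptor genes. Only the double mutant is also mutant for Ezh2, the methyltransferase that places the repressive histone mark H3K27me3. Strain, sex, age, the deleted exons and any Cre driver are not stated in the labels, nor whether arrays of a group came from separate animals, so the spread between them may be technical.

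The sample titles follow 3 wordings, called numbered (replicate 1), Rag (replicate 2) and Thy (replicate 3) here, and each wording has 1 array of each group. Values are listed in that order, and the arrays of a wording form a pair. The titles of RAG1-deficient replicates 1 and 3 also carry WT, and the labels do not say what it refers to. An intensity is the deposited linear value, scaled by the authors so that all arrays share a mean. A log2 difference is the double mutant minus the RAG1-deficient mean of log2(intensity + 23), with the standard error (SE) of the unpaired limma fit, and it understates changes of dim probe sets.

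BEX and TCEAL genes encode small proteins with largely disordered chains that bind other proteins. They form a cluster on the X chromosome of placental mammals, next to the ARMCX and GPRASP genes, and many of them are best known from brain. Bex1 binds the p75 neurotrophin receptor and has been linked to the cell cycle exit of differentiating nerve cells. H3K27me3 is found at many genes that are silent in one cell type and active in another.

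In the RefSeq gene order of assembly GRCm38.p6, the 6 genes follow each other as Gprasp1, Bex4, Bex1, Tceal9, Morf4l2 and Slc25a53. From the first to the last there are 65 gene records, 28 of them protein-coding. No other gene among those 65 has a probe set of its own in the table. Between Bex4 and Bex1 lie the protein-coding genes Tceal8 and Tceal5, and between Bex1 and Tceal9 lie Tceal7 and 1 unnamed locus. Transcript levels of Bex2, Bex3 and the TCEAL genes other than Tceal9 were not analysed here. In a wider window with 20 more records on each side, the homeobox gene Esx1 was the only further gene with a probe set.

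The promoter windows of Bex4, Bex1 and Tceal9 are shown because the first 2 genes stood far apart between the groups and the third, their nearest measured neighbour, did not. Each window is 300 bases of RefSeq sequence from 250 before to 50 after the gene's start, on build GRCm38.p6, read 5′ to 3′ on the gene's own strand. Bex4 lies at chrX:136138746-136139045 on the plus strand, Bex1 at chrX:136215464-136215763 on the minus strand and Tceal9 at chrX:136244830-136245129 on the plus strand. Capitals mark the motifs CACGTG and GGGCGG, searched on both strands.
Bex4: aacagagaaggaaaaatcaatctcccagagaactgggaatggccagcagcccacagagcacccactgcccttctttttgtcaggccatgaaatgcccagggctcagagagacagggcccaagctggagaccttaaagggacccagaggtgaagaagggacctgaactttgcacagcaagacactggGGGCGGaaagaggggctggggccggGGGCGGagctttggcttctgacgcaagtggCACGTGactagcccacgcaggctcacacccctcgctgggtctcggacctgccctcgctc
Bex1: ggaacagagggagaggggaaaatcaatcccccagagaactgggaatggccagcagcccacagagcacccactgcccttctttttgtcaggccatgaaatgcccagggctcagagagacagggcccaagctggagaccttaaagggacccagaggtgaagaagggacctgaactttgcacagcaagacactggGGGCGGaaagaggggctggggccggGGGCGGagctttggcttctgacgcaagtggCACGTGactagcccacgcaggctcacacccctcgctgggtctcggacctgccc
Tceal9: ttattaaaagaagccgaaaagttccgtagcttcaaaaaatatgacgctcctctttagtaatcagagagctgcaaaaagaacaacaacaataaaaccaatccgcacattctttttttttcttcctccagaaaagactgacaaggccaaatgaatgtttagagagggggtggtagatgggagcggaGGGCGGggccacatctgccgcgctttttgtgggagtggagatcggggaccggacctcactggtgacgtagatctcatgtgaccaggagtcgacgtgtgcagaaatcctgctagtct

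The windows of Bex4 and Bex1 are almost the same sequence on opposite strands of the chromosome. With Bex1 moved by 6 bases, 288 of 294 facing bases are identical (98.0%), and 271 of them form 1 unbroken run. That run starts at base 24 of the Bex4 window and at base 30 of the Bex1 window. Among all 32851 RefSeq promoter windows, no gene other than these 2 shares a run of 50 bases with either window. Bex2 and Bex3, another pair of the cluster, share a run of 162 bases and are identical at 84.8% of 263 facing bases.

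Both Bex windows hold 1 CACGTG and 2 GGGCGG, and neither holds TATAAA. The third of the 4 Morf4l2 windows has the same counts. Bex3 has 1 CACGTG, 1 GGGCGG and no TATAAA, and Bex2 has no CACGTG, 1 GGGCGG and 1 TATAAA. Tceal9 has no CACGTG and 1 GGGCGG, and the Gprasp1 window, those of Slc25a53 and the other Morf4l2 windows hold no CACGTG either. Of all promoter windows, 7.15% hold CACGTG, 35.7% hold GGGCGG and 13.6% hold TATAAA. CG dinucleotides, the usual site of DNA methylation, number 9 in the Bex4 window, 8 in the Bex1 window and 13 in the Tceal9 window. The Gprasp1 window has 25, those of Slc25a53 have 19 and 16, and the 4 windows of Morf4l2 have between 10 and 25, against a median of 7 over all windows. A match of letters describes these windows and is no evidence that a factor binds there.

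The targeted gene, Ezh2, read 291.5, 650.6 and 723.6 in double mutant arrays, against 1434.7, 1641.0 and 1789.5 in RAG1-deficient arrays. Ezh2 signal was thus lower in all double mutant arrays and lowest in the numbered one, and limma called it only with the block (adjusted p = 0.0261, against 0.332 unpaired). That call was lost with quantile scaling (adjusted p = 0.0521), with no filter (0.0716) and when the numbered (0.0796) or the Thy pair (0.111) was left out. Of 14 probe sets for T lineage and double-negative markers such as Cd3g, Ptcra and Il2ra, 13 were bright enough to test. The summed intensity of the 14 was 60242 to 84303 in double mutant arrays, against 67210 to 99436 in the RAG1-deficient group. All 13 lay below 0 (median log2 difference -0.32), and 0 passed in either limma fit (5 lower in the paired fit at p under 0.05 before adjustment, against 5.4% lower of all tested probe sets); the part of this in the values below was not tested. The brighter probe set of Rag1 itself gave 5394.4, 5225.7 and 5170.8 in double mutant arrays, against 6932.9, 7240.7 and 7264.0 in RAG1-deficient arrays. The deleted part of Rag1 is not stated, so this signal does not check the labels. The RAG1-deficient numbered array goes against the double-negative label: its summed CD4, CD8 and Cd6 signal was 12388, while the other 5 arrays had 600 to 912. Both arrays with Rag titles had a lower median intensity, 124.85 in the double mutant and 121.5 in the RAG1-deficient array, while the other 4 lay between 166.7 and 179.8.

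Bex4 and Bex1 were bright in all 3 double mutant arrays and dim in all 3 RAG1-deficient arrays, and none of the 4 neighbouring genes showed such a gap. Bex4, described in human cells as a protein bound to microtubules, gave 1605.1, 3525.5 and 2322.5 in double mutant arrays, against 111.4, 51.1 and 104.1 in RAG1-deficient arrays. The lowest double mutant array was far above the highest RAG1-deficient one, so the groups did not overlap. In bulk RNA, a change in the share of cells that carry a transcript and a change in the amount per cell cannot be told apart. The means were 2484 ± 970 for the double mutant and 88.9 ± 32.9 for the RAG1-deficient group (SD, n = 3 each), a ratio of 28.0. The log2 difference was 4.46 ± 0.35 (SE), and its value was 3.60 for the numbered pair, 5.58 for the Rag pair and 4.21 for the Thy pair.

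Bex1 gave 539.7, 1432.7 and 966.3 in double mutant arrays, against 36.1, 29.5 and 11.4 in RAG1-deficient arrays. All 3 RAG1-deficient values lay under 86.5, the filter level for testing, so Bex1 entered the comparison only through the double mutant arrays and had to differ. The means were 980 ± 447 for the double mutant and 25.7 ± 12.8 for the RAG1-deficient group (SD, n = 3 each), a ratio of 38.2. No background level was available to say whether the RAG1-deficient signal was above it. Set against the filter level instead, the double mutant mean was 11.3 times as high. The log2 difference was 4.30 ± 0.40 (SE), and its value was 3.25 for the numbered pair, 4.79 for the Rag pair and 4.85 for the Thy pair.

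These were the highest log2 differences of the 7642 tested probe sets, ranks 1 and 2, and the third was 2.92. Within the double mutant, Bex4 and Bex1 ran in the same order, highest in the Rag array and lowest in the numbered array. The numbered double mutant array also had the lowest Ezh2 signal, and 3 arrays allow no correlation. Within the RAG1-deficient group the order was not shared: the Rag array was lowest for Bex4 and the Thy array for Bex1. The gene table lists Bex4 among the older names of Bex1, and no transcript sequence was used here, so how far each probe set also reads the other gene was not tested.

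**Figure D1:**
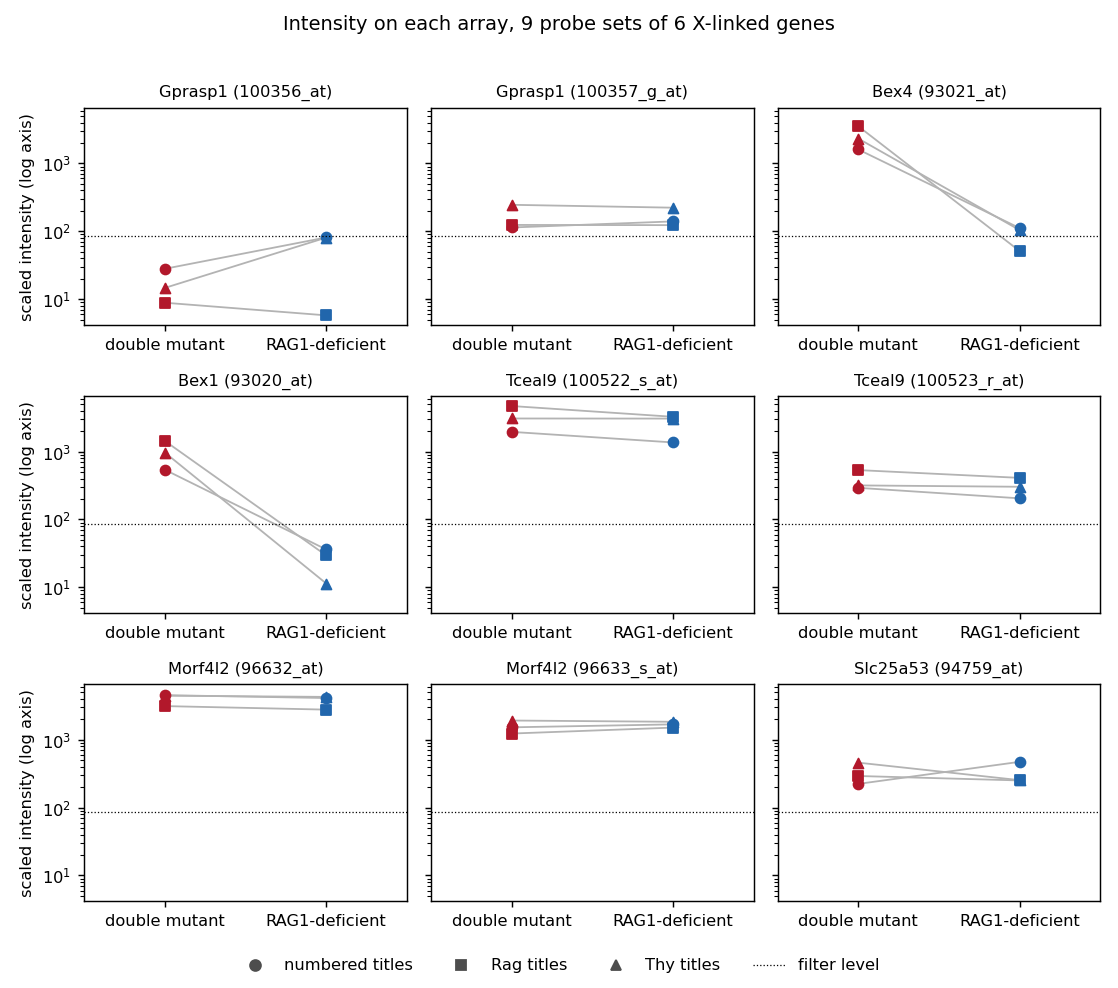
Scaled intensity (log axis) of the 9 probe sets on each array, double mutant at the left and RAG1-deficient at the right of each panel, with grey lines joining arrays of 1 title wording and a dotted line at the filter level of 86.5. For Bex4 the double mutant arrays lie at 1605.1 or more and the RAG1-deficient arrays at 111.4 or less, Bex1 has a like gap, and in the other 7 panels the groups overlap.

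In the unpaired limma fit over all tested probe sets, 2 of the 8 tested probe sets of the 6 genes, Bex4 and Bex1, were called higher at an adjusted p under 0.05, where 0.0393% of all tested probe sets were. In the fit with the title pair as a block they were again 2 of 8, against 0.563% of all. Called lower were 0 of 8 in either fit, against 0% of all without the block and 0.105% with it. No overlap between the groups, with the double mutant higher, was seen for the same 2, against 4.21% of all, and no overlap with the double mutant lower for 0 of 8, against 2.92%. The genes were chosen on this comparison, so nothing is read from these counts. Neither gene was called in the unpaired fit without double mutant replicate 3 or RAG1-deficient replicate 3, nor in the paired fit without the Thy pair, and Bex1 was not called in the unpaired fit without double mutant replicate 2. With any 1 array left out, the log2 difference stayed between 4.18 and 4.74 for Bex4 and between 3.98 and 4.66 for Bex1. Without the RAG1-deficient numbered array, which had the high CD8 signal, it was 4.62 for Bex4 and 4.46 for Bex1.

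Tceal9, the closest measured neighbour of Bex1 and a gene of the TFIIS-like TCEAL family, was bright in every array. Its brighter probe set, 100522_s_at, gave 1947.4, 4671.8 and 3062.5 in double mutant arrays, against 1359.5, 3243.6 and 3051.9 in RAG1-deficient arrays. The groups overlapped, and in both the Rag array was highest and the numbered array lowest. The means were 3227 ± 1370 for the double mutant and 2552 ± 1037 for the RAG1-deficient group (SD, n = 3 each), with a log2 difference of 0.35 ± 0.41 (SE).

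The second probe set of Tceal9, 100523_r_at, gave 291.9, 532.6 and 316.9 in double mutant arrays, against 204.4, 409.1 and 302.6 in RAG1-deficient arrays. Its log2 difference was 0.30 ± 0.33 (SE), and its arrays stood in the same order as those of the first. In every pair both probe sets were higher in the double mutant, by 0.51, 0.52 and 0.005 for the brighter and by 0.47, 0.36 and 0.06 for the dimmer. Of the 8 tested probe sets of the 6 genes, 5 were higher in all 3 pairs and 0 lower in all 3, against 18.8% and 17.1% of all. These 5 include Bex4 and Bex1, chosen on this comparison, and both probe sets of Tceal9, so nothing is read from this count. With single arrays left out, the log2 difference of the brighter probe set lay between -0.05, without the RAG1-deficient numbered array, and 0.66, without the double mutant numbered array. Without the double mutant Rag array it was 0.04.

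Morf4l2, a relative of the chromatin protein MRG15 found in histone acetyltransferase complexes, also gave strong signal throughout. Probe set 96632_at gave 4506.9, 3111.5 and 4429.8 in double mutant arrays, against 4089.4, 2760.4 and 4250.8 in RAG1-deficient arrays. The groups overlapped, and the Rag array was the lowest of each. The log2 difference was 0.12 ± 0.26 (SE). The second probe set, 96633_s_at, gave 1515.1, 1227.0 and 1907.8 in double mutant arrays, against 1674.4, 1501.1 and 1827.7 in RAG1-deficient arrays. Here the groups overlapped as well, with a log2 difference of -0.12 ± 0.23 (SE), so the probe sets of Morf4l2 lay on opposite sides of 0 by less than their errors.

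Slc25a53, a member of the mitochondrial carrier family, gave 222.7, 291.1 and 457.5 in double mutant arrays, against 470.6, 250.3 and 252.7 in RAG1-deficient arrays. The means were nearly equal, at 324 ± 121 for the double mutant and 325 ± 127 for the RAG1-deficient group (SD, n = 3 each). The pairs did not move alike, at -1.01 for the numbered pair, 0.20 for the Rag pair and 0.80 for the Thy pair. The log2 difference over all arrays was -0.001 ± 0.35 (SE), and it was 0.28 without the RAG1-deficient numbered array.

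Gprasp1, which sorts G protein-coupled receptors for breakdown after they leave the cell surface, was dim. Probe set 100357_g_at gave 114.0, 124.3 and 246.0 in double mutant arrays, against 140.1, 123.5 and 223.1 in RAG1-deficient arrays. The Thy array was the highest of each group, and the log2 difference was -0.04 ± 0.38 (SE). The other probe set, 100356_at, was under the filter level on every array and was not tested. It gave 28.1, 8.9 and 14.7 in double mutant arrays, against 81.3, 5.8 and 81.0 in RAG1-deficient arrays, with overlap.

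**Figure D2:**
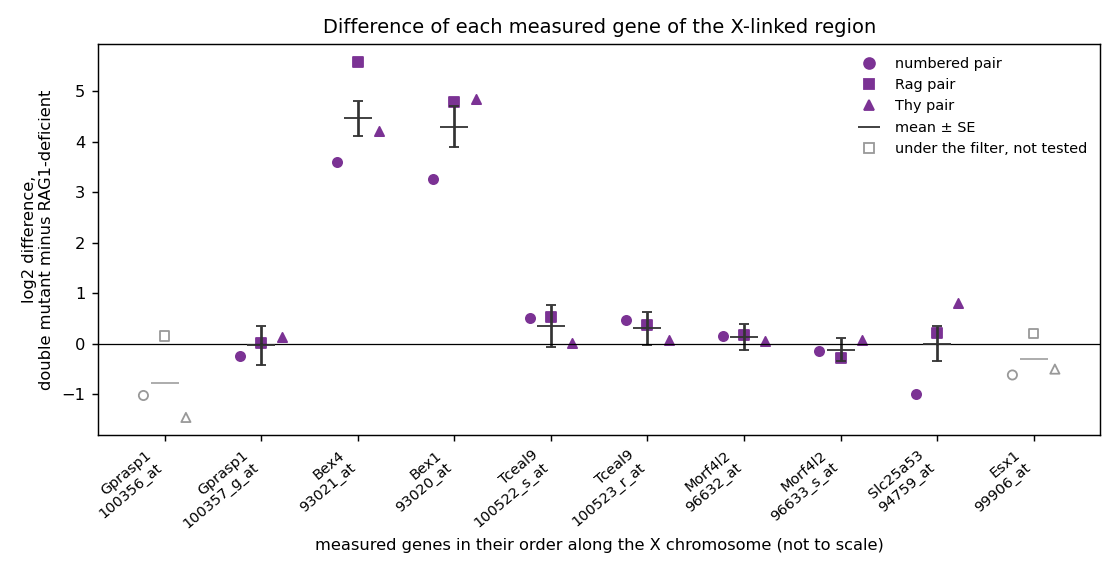
Log2 difference, double mutant minus RAG1-deficient, of each probe set in the order of the genes along the X chromosome, with 1 symbol for each title pair and a bar with SE for the mean. Bex4 and Bex1 stand at 4.46 and 4.30, while the tested probe sets of Gprasp1, Tceal9, Morf4l2 and Slc25a53 lie between -0.12 and 0.35; grey open symbols, those of Esx1 included, mark probe sets that were not tested.

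Over the 8 tested probe sets the log2 differences thus ranged from -0.12 to 4.46, with both large values in adjacent measured genes. Esx1, beyond Slc25a53, gave 29.8, 18.6 and 32.9 in double mutant arrays, against 58.3, 13.2 and 56.4 in RAG1-deficient arrays, all under the filter level.

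Of the 12 genes in the BEX and TCEAL list, 4 had a probe set, and the only one that is not among the 6 genes was Bex6. This BEX gene lies on chromosome 16, outside the cluster. Bex6 gave 287.3, 132.1 and 136.8 in double mutant arrays, against 234.6, 160.8 and 178.2 in RAG1-deficient arrays. The groups overlapped, the log2 difference was -0.10 ± 0.35 (SE), and Bex6 was not called in either fit.

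In the ARMCX and GPRASP list, 3 of 11 genes were on the array. Armcx2, an X-linked gene of the armadillo-repeat family, gave 426.9, 403.8 and 427.6 in double mutant arrays, against 338.2, 346.9 and 371.4 in RAG1-deficient arrays. Its groups did not overlap, which held for 7.13% of all tested probe sets counting both directions. Neither limma fit called Armcx2, whose log2 difference was 0.24 ± 0.21 (SE; paired adjusted p = 0.557). Armc10, a relative outside the X chromosome, differed by 0.04 ± 0.22 (SE) on the log2 scale and was not called.

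Other X-linked genes did not share the shift of Bex4 and Bex1. Of 253 such genes on the array 157 were tested with 188 probe sets, of which 100 lay above and 88 below 0. Their median log2 difference was 0.02, and that of all tested probe sets was -0.002. No X-linked probe set outside the 6 genes was called in the unpaired or the paired limma fit, where 0.0393% and 0.667% of all tested probe sets were called in either direction. At an unadjusted p under 0.05 the unpaired fit gave 5 higher and 0 lower, against 2.29% higher and 0.903% lower of all tested probe sets. The paired fit gave 16 higher and 7 lower at that level, against 7.73% and 5.4% of all. At no overlap the share was 6.91%, against 7.13% of all. By pair, the X-linked median was 0.001 for numbered titles, 0.04 for Rag titles and 0.001 for Thy titles.

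X-linked log2 differences outside the 6 genes reached from -1.37 to 1.68. The highest was that of Gspt2, a translation termination factor gene, with 259.6, 175.7 and 289.5 in double mutant arrays, against 136.4, 21.4 and 52.1 in RAG1-deficient arrays. The groups did not overlap, but neither limma fit called this difference of 1.68 ± 0.50 (SE) on the log2 scale (adjusted p = 0.889 unpaired and 0.0821 paired). Amot, whose product angiomotin binds Hippo pathway proteins, had a log2 difference of 1.0 ± 0.35 (SE) and was not called either (paired adjusted p = 0.188).

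**Figure D3:**
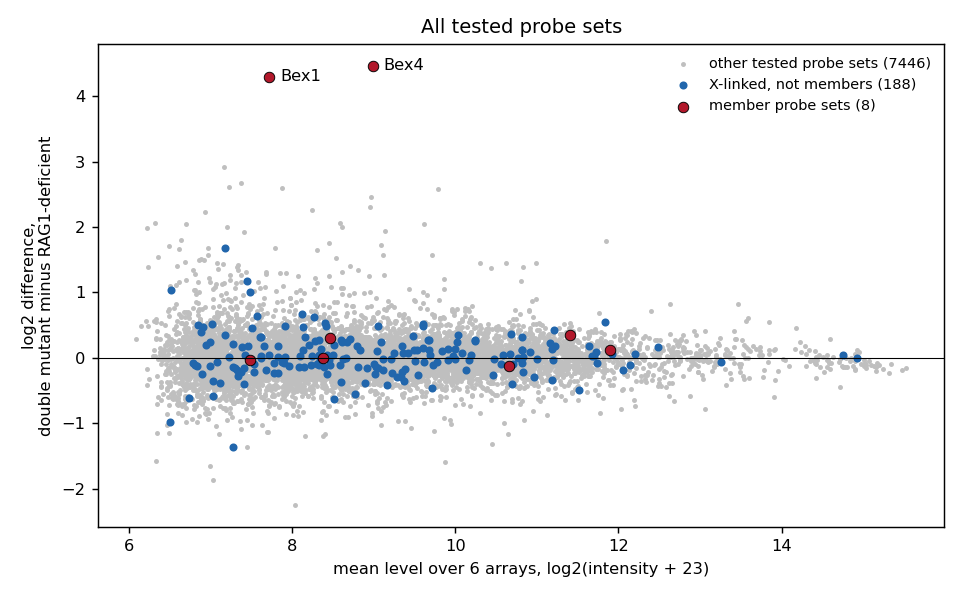
Log2 difference, double mutant minus RAG1-deficient, against the mean level over the 6 arrays, log2(intensity + 23), for every tested probe set. Red points are the 8 tested probe sets of the 6 genes, blue points the 188 other X-linked probe sets and grey points all others; Bex4 and Bex1 lie above 4 and every other point lies at 2.92 or less.

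Xist, the RNA that coats the inactive X chromosome, was bright in both groups, with 4186.4, 1457.9 and 2423.3 in double mutant arrays, against 5413.6, 794.1 and 9482.3 in RAG1-deficient arrays. The Rag array was the lowest of each group, the groups overlapped, and the log2 difference was -0.49 ± 0.81 (SE), with no call. The Y-linked genes Uty, Kdm5d and Eif2s3y were under the filter level on all 6 arrays. Of the X inactivation and sex-linked list, 5 probe sets were tested and 0 passed in either limma fit, also at an unadjusted p under 0.05. Ddx3x, one of 2 genes with the smallest unadjusted p there, had a log2 difference of 0.24 ± 0.40 (SE) at its dimmer probe set. At its brighter probe set it had 0.36 ± 0.82 (SE).

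Lists of genes linked to Morf4l2 by family or complex, and to Tceal9 only by family likeness, had median log2 differences of -0.004 and -0.01. For MRG proteins, the NuA4 acetyltransferase complex and the Sin3 genes, 11 of 20 genes were on the array. Of their 14 tested probe sets, both of Morf4l2 included, 7 were above and 7 below 0. In either limma fit 0 passed (1 higher in the paired fit at p under 0.05 before adjustment). Ruvbl2, an ATPase of that complex, had a log2 difference of 0.31 ± 0.21 (SE), and the actin-related Actl6a had 0.30 ± 0.25 (SE). Of 17 for TFIIS and other transcription elongation factors, 8 were above and 9 below 0, and 0 passed in either limma fit (2 higher and 2 lower in the paired fit at p under 0.05 before adjustment). There the elongation factor Ell2 had a log2 difference of 1.30 ± 0.34 (SE, paired adjusted p = 0.119 in limma). The other Ell2 probe sets were too dim to test, with 0.60 and -0.09. The elongin gene Eloa had -0.50 ± 0.22 (SE), with -0.36 at its second probe set. At p under 0.05 before adjustment, 7.73% of all tested probe sets were higher and 5.4% lower in the paired fit.

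Of 9 tested probe sets for p75 neurotrophin receptor signalling, 4 were above and 5 below 0, and 0 passed in either limma fit. In the paired fit 1 was higher at p under 0.05 before adjustment, against 7.73% of all. Maged1, an adaptor of that receptor, had a log2 difference of 0.48 ± 0.36 (SE), and its value lay between 0.23 and 0.83 with 1 array left out. The brightest probe set of the small GTPase gene Rhoa had -0.29 ± 0.24 (SE), between -0.42 and -0.11 with 1 array left out, while its other probe sets had 0.37 and -0.40. The mitochondrial carrier list had 22 tested probe sets, Slc25a53 included, with a median log2 difference of 0.01, and 0 passed in either limma fit. In the paired fit 1 was higher at p under 0.05 before adjustment, against 7.73% of all. In that list Slc25a14, a carrier gene known from brain that is also X-linked, had a log2 difference of 1.04 ± 0.56 (SE), and Slc25a45 had -0.72 ± 0.53 (SE). Both were dim, and with 1 array left out they lay between 0.74 and 1.51 and between -1.12 and -0.32, and with a pseudocount of 100 at 0.53 and -0.35.

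Other genes known from nerve cells mostly lay under the filter level in both groups. All 23 genes of that list were on the array with 35 probe sets, and 21 of the 35 were under the filter level on all 6 arrays, among them those of Snap25, Syt1 and Map2. Of the 10 that were tested, 5 lay above and 5 below 0, with a median log2 difference of -0.03. No overlap with the double mutant higher held for 3 of the 10, against 4.21% of all tested probe sets. With the double mutant lower it held for 0, against 2.92%. In the paired limma fit 2 of the 10 rose, against 0.563% of all tested probe sets, and 0 fell.

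The first of these was Uchl1, a ubiquitin hydrolase abundant in neurons. It gave 438.9, 409.5 and 416.1 in double mutant arrays, against 196.0, 167.9 and 209.1 in RAG1-deficient arrays. The groups did not overlap, and each pair differed by about the same amount (log2 1.08, 1.18 and 0.92). Its log2 difference was 1.06 ± 0.23 (SE), with an adjusted p of 0.332 in the unpaired limma fit and 0.0475 in the paired one. The paired call was lost with quantile scaling (adjusted p = 0.0683), with median scaling (0.0595), with a pseudocount of 1 (0.0652), with no filter (0.125) and when the numbered (0.214) or the Thy pair (0.146) was left out. The other was the adhesion molecule gene Ncam1, by the brightest of its 3 probe sets, with 671.8, 718.4 and 541.0 in double mutant arrays, against 235.7, 80.3 and 77.3 in RAG1-deficient arrays (adjusted p = 0.0261 paired and 0.18 unpaired). Its call was lost with no filter (adjusted p = 0.0716) and when the Thy pair was left out (0.125). A second probe set of Ncam1 had a log2 difference of 0.34 and was not called, and the last, under the filter level on all arrays, was lower in the double mutant.

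Markers of other cells were set beside Bex4 and Bex1. For NK and innate lymphoid cells, the 9 probe sets of 7 genes summed to 8041 to 10270 in the double mutant and to 2816 to 4436 in the RAG1-deficient group, without overlap. The granzyme genes Gzma and Gzmb were the 2 of 7 tested probe sets called higher in the paired limma fit, against 0.563% of all. In the unpaired fit 0 of the 7 were called, and 2 were higher at p under 0.05 before adjustment, against 2.29% of all. Of the 7, 5 lay above 0, and the part of such cells in the Bex signal was not tested. Gzma alone gave 8096.4, 7945.8 and 4982.3 in double mutant arrays, against 2796.2, 2163.4 and 1244.4 in RAG1-deficient arrays. Without Gzma, the other 8 probe sets summed to 2174, 1905 and 3059 in double mutant arrays, against 1639, 2267 and 1572 in RAG1-deficient arrays, and the groups overlapped. Among markers of glia and Schwann cells, 5 of 9 probe sets were under the filter level on all arrays, among them every probe set of S100b and Pmp22. Their sum over the 9 was 1425 to 1517 in the double mutant and 1463 to 1941 in the RAG1-deficient group. The sums overlapped between the groups for thymic epithelium, at 1336 to 3231 in the double mutant and 1352 to 4154 in the RAG1-deficient group, and for stroma and endothelium, at 1916 to 2512 in the double mutant and 1928 to 2410 in the RAG1-deficient group. In the stromal list 1 of 6 tested probe sets rose in the paired limma fit, against 0.563% of all, that of the growth factor receptor gene Pdgfrb, with 419.9, 536.5 and 404.8 in double mutant arrays, against 135.4, 210.3 and 201.6 in RAG1-deficient arrays (adjusted p = 0.0436 paired and 0.332 unpaired, so not called without the block). The B lineage sum was 1936 to 2439 in the double mutant and 2362 to 3016 in the RAG1-deficient group, again with overlap. Myeloid markers summed to 2874 to 5145 in the double mutant and 3165 to 12311 in the RAG1-deficient group. Erythroid markers summed to 1816 to 31309 in the double mutant and 805 to 31107 in the RAG1-deficient group, so that both of these overlapped as well. Of the 5 erythroid probe sets tested, 4 lay above 0 and 0 were called in either limma fit. At p under 0.05 before adjustment 2 were higher in each fit, against 2.29% of all unpaired and 7.73% paired. No overlap with the double mutant higher held for 2 of the 5, against 4.21% of all. The part of erythroid cells in the Bex signal was not tested.

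The genes whose level followed that of Bex4 most closely over the 6 arrays were Fbln2, Macrod2, Cenpv, Med12l and H1f10. Their Pearson correlations with Bex4 lay between 0.986 and 0.994 on the log2 scale, among 3148 probe sets whose log2 level spanned at least 1. Fbln2, an extracellular matrix gene, gave 639.6, 734.7 and 705.6 in double mutant arrays, against 354.7, 351.7 and 362.2 in RAG1-deficient arrays. The genes most like Bex1 were Ptpn13, Mtx2, Npnt, Fbln2 and Fkbp11, with correlations from 0.982 to 0.998. Npnt and Fkbp11 lay under the filter level on all RAG1-deficient arrays. Like Bex1, they were tested only through the double mutant arrays and had to differ. Ptpn13, a tyrosine phosphatase gene, gave 798.5, 1328.3 and 1186.3 in double mutant arrays, against 310.4, 269.8 and 219.1 in RAG1-deficient arrays. None of these 9 genes is X-linked. Over 6 arrays in 2 groups such a correlation mostly repeats the difference between the groups, and it is given as a description.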

How the data were processed

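Per the values of the deposited table, the authors gave 1 linear intensity for each probe set and array, scaled so that the 2%-trimmed mean lay between 500.293 and 500.37; the software is not given in the sources used here. Such scaling hides a change shared by most transcripts. The 66 control probe sets were left out. A probe set entered the comparison if 3 or more arrays exceeded 86.5, which is the 40th percentile of all intensities; 7642 did. They were compared on the scale log2(intensity + 23), with 23 the 20th percentile, by limma 3.58.1 in R 4.3.3 (lmFit, eBayes with a trend). Tests were two-sided, p-values were adjusted after Benjamini-Hochberg across the 7642, and calls were made under 0.05. The limma script was tested on simulated data for the unpaired fit only, with a common spread for all probe sets and no pair effect.

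Gene names came from the platform's table and RefSeq, with 10833 probe sets of 1 gene, 396 of several and 1193 of none. Title wording was used as a block because the rule by which the probe sets were taken names these pairs, and no label states a shared litter or day. In these same values, deviations from the group means correlated at 0.570, 0.736 and 0.602 within wordings and at -0.544 to 0.0394 across them. Deviations within a group sum to 0, so positive values within wordings bring negative ones across them by construction. The values across wordings therefore add nothing separate. Precision is limited by the number of arrays. The 6 genes and all lists were chosen with earlier results of these data known. Named were the 6 genes, Ezh2, the BEX, TCEAL, ARMCX and GPRASP genes, of each other list the called members or else the 2 with the smallest unadjusted p, and the 5 genes most like Bex4 and Bex1. Alternatives were other scalings, pseudocounts, filters and left-out arrays.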

Additional observations from a re-analysis of the deposited data

How the results depend on the processing

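The log2 differences of Bex4 and Bex1 kept their direction under every alternative, from 3.72 to 4.79 and from 3.02 to 5.24 over scalings, pseudocounts and filters. Pseudocounts moved them most, to 3.72 for Bex4 and 3.02 for Bex1 with 100 and to 5.24 for Bex1 with 1, by construction. With the filter required on all arrays neither was tested. The other members had no call in any setting, and with 1 array left out the range crossed 0 for Gprasp1 (-0.35 to 0.19), Slc25a53 (-0.26 to 0.28), both probe sets of Morf4l2 (-0.07 to 0.30 and -0.28 to 0.03) and the brighter of Tceal9 (-0.05 to 0.66).

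The unpaired fit called 3 probe sets. It called 5 with quantile scaling, 1 with the filter on all arrays, 0 to 6 with 1 array left out, and 51 with title wording as replicate block. The paired fit called 51, against 22 with quantile scaling, 30 with a pseudocount of 1, 5 without the filter, 14 without the numbered pair, 191 without the Rag pair and 3 without the Thy pair. The cause was not tested. With 1 array left out, the X-linked median lay between -0.052 and 0.0867. Log2 differences then crossed 0 for Bex6 (-0.4292 to 0.071), Armc10 (-0.0773 to 0.2008), the dimmer probe set of Ddx3x (-0.14 to 0.48) and Xist (-1.54 to 0.23). The alternatives for these named genes were chosen after seeing the data. The paired calls of Ezh2, Uchl1 and Ncam1 that were lost are given with their values.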
